A study of Homo sapiens with 12 samples.

Results

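The human genome build hg19 holds, beside the assembled chromosomes, short sequences whose place is not known in full. Of the 764268 peaks in 9 lists of chromatin bound by RNA-directed probes, 1870 (0.245%) lay on such sequences. They were taken as all peaks whose sequence name contains _random, chrUn or _hap. The 1870 peaks fell on 59 sequences: 875 peaks on 20 random sequences, 995 on 39 unplaced sequences and 0 on haplotype sequences, a kind that no list names. The other peaks lay on chromosomes 1 to 22 and X (761751 peaks), which served as the comparison within each list, or on chromosomes Y and M.

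The samples were cells of Jurkat, a human line long established from a T-cell leukaemia, that carried stable expression of SLEAR, a long non-coding RNA; every group shares this background, so none lacks the RNA. In chromatin isolation by RNA purification (ChIRP-seq), biotinylated DNA oligonucleotides pair with an RNA in crosslinked chromatin, and the DNA that is pulled down with it is sequenced. Probes along an RNA are numbered and divided into an odd and an even pool; the odd and even groups were captured with these, and the lacZ group with control probes to a bacterial RNA that human cells do not make. Each of these 3 groups has 3 libraries with 1 peak list each; the 3 input libraries named in the labels were not analysed here. The labels do not say whether replicates are separate cultures; the p-values therefore reflect the spread between these libraries only, and that spread may be technical.

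A random sequence is known to belong to a given chromosome but not to a position on it, and an unplaced sequence (chrUn) has not been given to any chromosome. Haplotype sequences are alternative versions of a region. Such sequences are rich in satellite repeats, segmental duplications and members of multigene families, so that reads from several places in a cell's genome can be assigned to a single stretch, and signal there is read with care in capture assays.

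The lists held between 26540 (lacZ replicate 3) and 124668 (even replicate 3) peaks in all, and the number of reads behind them is unknown. Peaks on unplaced and random sequences numbered 146, 226 and 225 in odd replicates 1, 2 and 3, 263, 272 and 339 in the even lists, and 106, 224 and 69 in the lacZ lists. Since the lists differ in length, all rates below are peaks per 10000 peaks of the same list.

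Even lists gave the highest rate of peaks on unplaced and random sequences and odd lists the lowest. The odd lists had 21.9, 21.3 and 19.2 peaks per 10000 (20.8 ± 1.46, SD, n = 3). The even lists had 27.8, 30.0 and 27.2 (28.4 ± 1.497). The lacZ lists had 22.7, 24.6 and 26.0 (24.4 ± 1.65) and lay between the probe sets, with no overlap between any pair of groups. The 6 probe lists and the 3 lacZ lists differed by -0.01 on the log2 scale (exact permutation test, two-sided, p = 0.964 over 84 choices of lists). Even lists stood above odd lists by 0.45 on the log2 scale, 1.37-fold, with an exact permutation p = 0.1, the smallest that 3 lists against 3 can give. In lists cut to equal length the difference was 0.085 (exact permutation p = 0.3), and among peaks with a fold above the median of the list it was 0.30 (exact permutation p = 0.1). Odd minus lacZ was -0.23 and even minus lacZ 0.22, each with an exact permutation p = 0.1; both use the same lacZ lists.

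The sequence chr9_gl000199_random alone gave 4.02 of the 28.4 peaks per 10000 in the even lists, on average, and 0.0284 in the odd lists. Without it the odd lists had 20.8 ± 1.51 peaks per 10000, the even lists 24.3 ± 0.583 and the lacZ lists 23.6 ± 0.955 (SD, n = 3), so that even and lacZ lists now overlapped. The even lists still stood above the odd lists, by 0.23 on the log2 scale (exact permutation p = 0.1). Without chrUn_gl000220 as well, the means were 19.0, 23.4 and 20.5 and even minus odd was 0.31 (exact permutation p = 0.1).

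**Figure D1:**
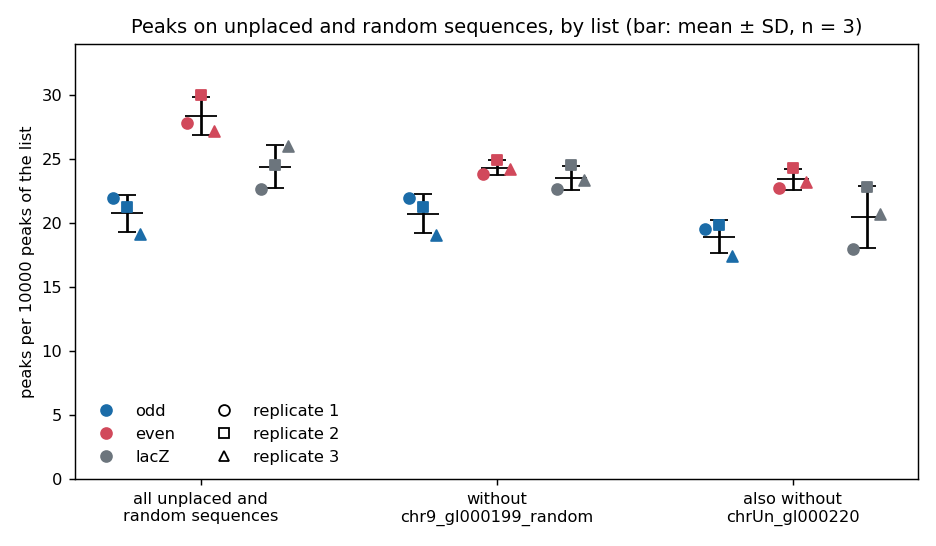
Peaks on unplaced and random sequences per 10000 peaks of the list (vertical axis, starting at 0) for each of the 9 lists, with all sequences, without chr9_gl000199_random, and also without chrUn_gl000220. Colours are the probe sets, symbols the replicates, and bars the mean ± SD of 3 lists; the 3 even lists lie at 27.2 to 30.0 with all sequences, above all other lists, and at 23.8 to 24.98 without the 1 sequence.

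Peaks were spread over many sequences but unevenly, and the sequences differ in length, which counts and rates per sequence do not allow for. The 12 sequences with the highest mean rate over the 9 lists held 55.6% of the 1870 peaks. A peak was present in all 9 lists on 20 sequences and in at least 1 list of each set on 44. No lacZ list had a peak on 9 sequences, no odd list on 6 and no even list on 4, each with at most 26 peaks.

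The rate was tested sequence by sequence with limma on log2 of peaks plus 0.5 per 10000 peaks of the list, over 47 sequences with a mean of at least 3 peaks per list. Of these, 22 were unplaced or random, and 25 were chromosomes 1 to 22, X, Y and M. The 37 sequences left out held 463 peaks, 2 to 26 each. In odd against lacZ lists, 9 of the 22 unplaced or random sequences passed an adjusted p of 0.05 (Benjamini-Hochberg over all 47), where 48.9% of all tested sequences did; 5 were higher in odd lists (25.5% of all tested) and 4 lower (23.4%). In even against lacZ lists, 9 of 22 passed, where 38.3% of all tested sequences did; 7 were higher in even lists (21.3% of all tested) and 2 lower (17%). In odd against even lists, 1 of 22 passed, where 2.13% of all tested did. Among the 25 chromosomes, 3 were higher and 6 lower in even than in lacZ lists, and 7 were higher and 7 lower in odd than in lacZ lists. With both directions summed, the share of unplaced and random sequences called was near that of all tested sequences in the comparisons with lacZ. By direction, the even calls leaned to higher and those of the chromosomes to lower, and this lean was not tested. It also depended on the filter. Without a filter, over 59 unplaced and random sequences, 12 were called higher and 11 lower in even than in lacZ lists. In odd against lacZ lists 7 were then called higher and 18 lower. The median log2 difference of the 22 was 0.08 for odd minus lacZ, 0.53 for even minus lacZ and -0.19 for odd minus even, beside 0.06, 0.02 and -0.02 over all 47. All 3 odd lists lay above all 3 lacZ lists on 5 of the 22 (27.7% of all 47 tested) and below them on 3 (21.3%), and all 3 even lists lay above the lacZ lists on 8 (25.5%) and below on 3 (21.3%). Calls rested on few lists: without all lists numbered 1, limma called 0 of 24 in each comparison, with 8, 9 and 2 at an unadjusted p under 0.05 for odd minus lacZ, even minus lacZ and odd minus even. The values for single sequences below come from this fit, and the 2 comparisons with lacZ share its 3 lists.

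The sequence with the most peaks was chr1_gl000192_random, with 17, 26 and 28 peaks in the odd lists, 32, 32 and 37 in the even lists and 7, 22 and 2 in the lacZ lists. The even rate of 3.30 peaks per 10000 was above the lacZ rate of 1.56 (log2 difference 1.10 ± 0.31 SE, limma adjusted p = 0.0194), and all 3 even lists lay above all lacZ lists. Without even replicate 1 or 2 it did not pass (1.08 and 1.05, limma adjusted p = 0.0636 and 0.0635). Its peaks were ordinary in shape, with a median length 1.02 times and a median pileup 0.97 times that of the main chromosomes in the same list. They reached as far as position 547063, where those of chrUn_gl000220 ended at 161711. Up to the last peak, overlapping peaks of all lists merged into 16.6 regions per 100 kb, beside 30.8 on chr9_gl000199_random and 7.99 on chrUn_gl000216.

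On chr9_gl000199_random the groups were furthest apart. The even lists had 38, 46 and 37 peaks there. The odd lists had 0, 0 and 1, and the lacZ lists 0, 0 and 7. Odd minus even was -5.70 ± 1.20 SE on the log2 scale (limma adjusted p = 0.0394), and even minus lacZ was 3.96 ± 1.20 (adjusted p = 0.0256). Only through the even lists, with a mean of 40.3 peaks, did this sequence meet the filter of at least 3 peaks per list. The odd and lacZ means were 0.333 and 2.33, and the p-values do not allow for this selection. Both sizes depend on the 0.5 peak added to lists with no peak. With 1 peak added they were -4.91 and 3.28 (limma adjusted p = 0.0302 and 0.0274). With an addition scaled to list length they were -5.65 and 4.24 (limma adjusted p = 0.0717 and 0.031), so that the odd against even call ended while its size stayed large. Without lacZ replicate 3, the one lacZ list with peaks there, even minus lacZ was 5.70 (limma adjusted p = 3.36e-05). Leaving out lacZ replicate 1 or 2 or any 1 even list ended that call (adjusted p between 0.053 and 0.0868), with differences of 2.85 to 4.16. Leaving out odd replicate 1 or 2 or any 1 even list ended the odd against even call (adjusted p between 0.104 and 0.21), with differences of -5.90 to -5.34.

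The sequence chr19_gl000209_random is known to hold an alternative arrangement of the killer-cell immunoglobulin-like receptor genes, a multigene family of receptors of natural killer cells and some T cells. It had 10, 13 and 15 peaks in the odd lists, 7, 9 and 15 in the even lists, and 0, 4 and 0 in the lacZ lists. Odd minus lacZ was 2.68 ± 0.49 SE (limma adjusted p = 0.0044) and even minus lacZ 2.23 ± 0.49 (adjusted p = 0.00887), with every probe list above every lacZ list. Relative pileup was 0.81 and relative fold 0.92, so the peaks were no taller than those on main chromosomes.

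Other short sequences gave few peaks with lacZ probes. On chrUn_gl000217 the odd lists had 4, 7 and 8 peaks, the even lists 6, 6 and 10 and the lacZ lists 1, 3 and 0; odd minus lacZ was 1.30 and even minus lacZ 1.39. On chrUn_gl000216 the counts were 3, 4 and 6, then 5, 5 and 5, and in lacZ lists 0, 2 and 0, with log2 differences of 1.49 and 1.61. On chrUn_gl000227 they were 2, 5 and 5, then 3, 4 and 7, and in lacZ lists 0, 2 and 0, with 1.35 and 1.44. On chr17_gl000204_random they were 5, 4 and 6, then 8, 4 and 7, and in lacZ lists 1, 2 and 0, with 1.18 and 1.34. All 8 differences passed in limma (adjusted p between 0.00887 and 0.0299), and in each every probe list of the set lay above every lacZ list, yet each lacZ count was 3 or fewer. The odd call on chr17_gl000204_random ended without odd replicate 1 or 3, even replicate 3 or lacZ replicate 3 (differences of 0.92, 1.21, 1.18 and 0.96). Its even call ended without even replicate 1 or 3 (1.10 and 1.39), and without even replicate 2 the even calls on chrUn_gl000216 (1.52) and chrUn_gl000227 (1.42) ended.

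Some sequences leaned towards lacZ. On chrUn_gl000219 the odd lists had 9, 10 and 9 peaks, the even lists 3, 5 and 6 and the lacZ lists 7, 10 and 7, and even minus lacZ was -1.83 ± 0.37 SE (limma adjusted p = 0.00785). On chrUn_gl000220 the counts were 16, 15 and 19, then 10, 6 and 13, and in lacZ lists 22, 16 and 7, with even minus lacZ at -1.61 ± 0.37 (adjusted p = 0.00887). On chr17_gl000205_random they were 5, 6 and 6, then 10, 11 and 19, and in lacZ lists 7, 12 and 6, with odd minus lacZ at -1.42 ± 0.28 (adjusted p = 0.00539). In these 3 comparisons the groups did not overlap in peaks per 10000.

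Odd lists were also lower than lacZ lists on 3 sequences with weaker support. On chrUn_gl000223 (2, 3 and 5 peaks in odd and 2, 6 and 2 in lacZ lists) odd minus lacZ was -0.88, on chrUn_gl000224 (4, 4 and 4 against 7, 10 and 1) it was -1.08, and on chrUn_gl000211 (2, 5 and 3 against 3, 6 and 1) it was -0.79 (limma adjusted p between 0.044 and 0.0458). On chrUn_gl000224 and chrUn_gl000211 the groups overlapped. Each of the 3 lost its call without any 1 of 7 or more of the 9 lists (differences of -1.004 to -0.61 on chrUn_gl000211, -0.88 to -0.68 on chrUn_gl000223 and -1.08 to -0.75 on chrUn_gl000224). The calls of lower odd rates also depended on the 0.5 peak added. With the addition scaled to list length, only 1 of the 22 sequences was called lower in odd than in lacZ lists, in place of 4. The number called higher stayed at 5.

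The remaining sequences among the 12 with the highest rates passed in no comparison. On chr7_gl000195_random the lists had 8, 10 and 10 peaks with odd, 9, 7 and 12 with even and 7, 11 and 3 with lacZ probes. On chr4_gl000194_random the counts were 5, 10 and 8, then 8, 9 and 11, and 4, 8 and 3 with lacZ probes. On chr4_gl000193_random they were 4, 7 and 7, then 10, 8 and 11, and 4, 9 and 2. These 3 had peaks in every list. On chrUn_gl000225 the counts were 3, 7 and 6, then 7, 8 and 14, and 4, 8 and 0 with lacZ probes, and on chrUn_gl000221 they were 5, 7 and 5, then 8, 10 and 8, and 0, 5 and 2.

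**Figure D2:**
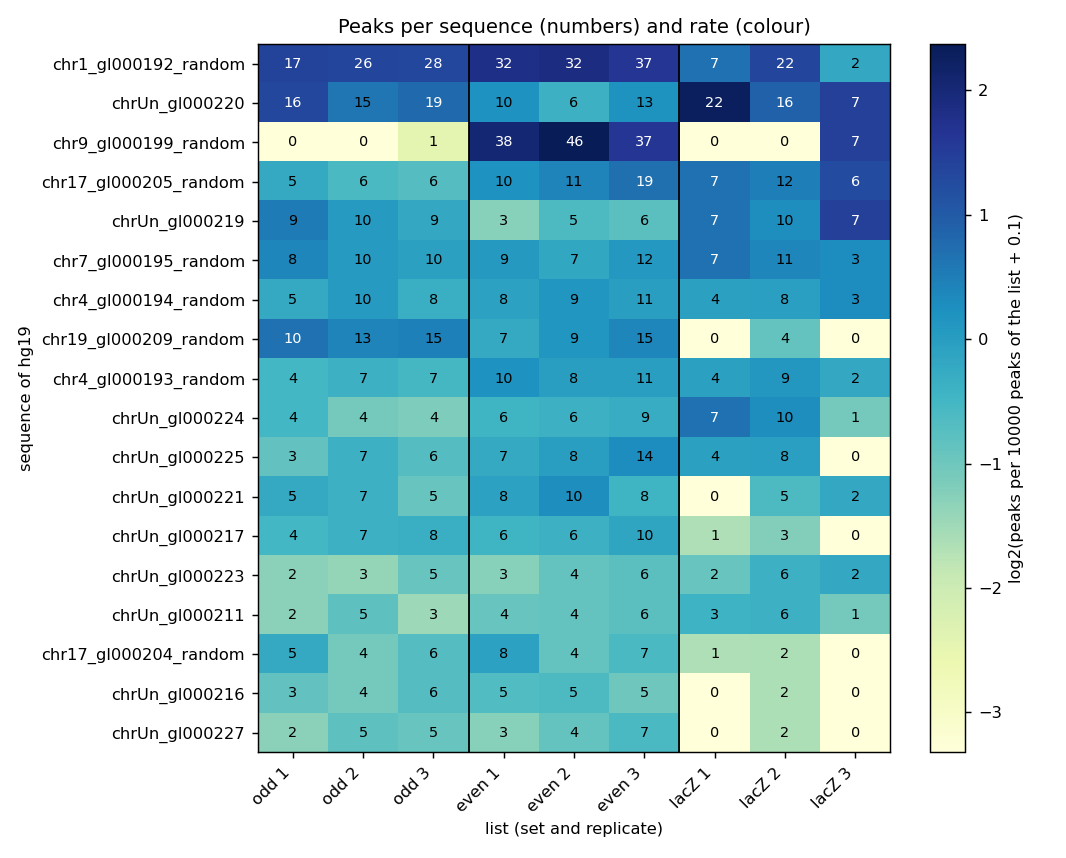
Peaks per sequence (number in each cell) and peaks per 10000 peaks of the list (colour, on a log2 scale after adding 0.1) for the 12 sequences with the highest mean rate and the 6 others called in the fit, by list. The row of chr9_gl000199_random is filled in the 3 even lists with 37 to 46 peaks and nearly empty in the others.

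By the median of each list, peaks on unplaced and random sequences were about as long as other peaks but taller, and stood out less from their background. For each list the median over these peaks was divided by the median on chromosomes 1 to 22 and X. Lists of the same set share many of these peaks. Between 2 lists of a probe set 78.3% to 89.7% of the peaks of the first overlapped the second, and between 2 lacZ lists 24.6% to 84.9%. The 9 lists are therefore not independent sets of sites, which the sign-flip tests below do not take into account. Lengths had a ratio of 1.001 (3 of 9 lists above 1; exact sign-flip permutation test, two-sided, p = 0.922). The median length was 346 to 389 bases in odd, 384 to 409 in even and 340 to 459 in lacZ lists, and single peaks ran from 215 to 2311 bases.

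The pileup, the number of fragments over the summit, was 1.54 times higher, and above 1 in 9 of 9 lists (exact sign-flip permutation p = 0.00391, the smallest possible; adjusted p = 0.00521 over 4 measures). Median pileups were 32, 42 and 27 in the odd lists where the main chromosomes had 26, 32 and 20. They were 48, 56.5 and 31 in the even lists against 30, 32 and 20. In the lacZ lists they were 50, 33.5 and 41 against 24, 25 and 22. The excess was thus present in every list, and its ratio ran from 1.23 in odd replicate 1 to 2.08 in lacZ replicate 1. It was not present on every sequence. The median pileup relative to the main chromosomes was above 2 on 15 of the 59 sequences, but 0.97 on chr1_gl000192_random and 0.60 on chrUn_gl000227.

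The fold enrichment, the authors' ratio of a peak to its background, went the other way. It was 0.87 times that on main chromosomes and below it in 9 of 9 lists (exact sign-flip permutation p = 0.00391, adjusted p = 0.00521). The −log10 q was 1.26 times higher (9 of 9 lists, same p). The background that pileup and fold imply, their quotient, was 1.52 times higher in 9 of 9 lists (exact sign-flip permutation p = 0.00391). This measure was added after the lists had been seen and is not independent of the other 2. It is a rough index only. In even replicate 3, pileups of 7 and 14 had folds of at most 4.73 and 8.87, so a constant appears to be added before the division. The quotient then rises a little with pileup at an equal background, and its ratios are not exact sizes of the background. Without both chrUn_gl000220 and chr9_gl000199_random, pileup, fold, −log10 q and this background kept their sides, at log2 ratios of 0.40, -0.12, 0.19 and 0.42 (exact permutation p between 0.00391 and 0.00781). Among the peaks of each list with a fold above its median, the log2 fold ratio was only -0.02 (exact permutation p = 0.605).

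The excess in this quotient was also present with the control probes. The mean background ratio was 1.26 ± 0.051 with odd, 1.49 ± 0.108 with even and 1.89 ± 0.371 with lacZ probes (SD, n = 3 lists). Probe minus lacZ lists was -0.44 on the log2 scale for the background ratio (exact permutation p = 0.0357, adjusted p = 0.119 over 5 measures) and 0.12 for the fold ratio (exact permutation p = 0.0476, adjusted p = 0.119), so neither passed after adjustment.

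**Figure D3:**
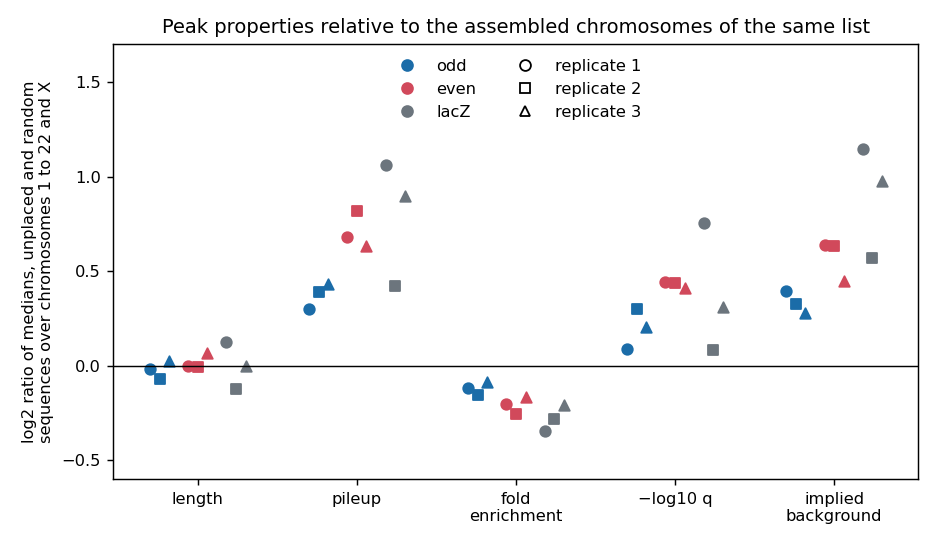
Log2 ratio of the median over peaks on unplaced and random sequences to the median on chromosomes 1 to 22 and X of the same list (vertical axis), for 5 properties; each point is 1 of 9 lists, coloured by probe set with symbols for replicates. Lengths scatter around 0, pileup, −log10 q and implied background lie above 0 in all 9 lists, and fold enrichment lies below 0 in all 9.

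The highest implied backgrounds were concentrated on a few sequences. The median implied background relative to the main chromosomes was above 2 on 14 of the 59 sequences and under 1.5 on 40. Peaks whose implied background exceeded 10 times the median of the main chromosomes made up 8.22%, 3.54% and 4.44% of the peaks on unplaced and random sequences in the odd lists. They made up 17.9%, 18.4% and 13.0% in the even lists and 16.04%, 4.91% and 18.8% in the lacZ lists. On chromosomes 1 to 22 and X such peaks were between 0.00886% and 0.125% of a list. Of these peaks, 9 of 12, 4 of 8 and 6 of 10 in the odd lists lay on chrUn_gl000220 or chr9_gl000199_random, as did 41 of 47, 45 of 50 and 36 of 44 in the even lists and 16 of 17, 6 of 11 and 10 of 13 in the lacZ lists.

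The ends of the fold scale were filled unequally. Between 10.2% and 31.1% of the peaks on unplaced and random sequences were in the lowest 10% of their list by fold, and between 6.08% and 10.1% were in the highest 10%. High folds were therefore about as frequent as elsewhere or rarer, and low folds were as frequent or commoner.

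The sequence chrUn_gl000220 is known to hold copies of the ribosomal RNA gene unit, which is repeated in tandem on the short arms of the acrocentric chromosomes. Its peaks fell into 2 stretches, divided here at 100 kb after the peaks had been seen. In the first stretch the median pileup was 1.28 to 3.59 times that of the main chromosomes, and the implied background 2.42 to 3.63 times. Beyond 100 kb the pileup was 17.7 to 78.0 times and the implied background 102 to 237 times that of the main chromosomes. Fold beyond 100 kb was 0.156 to 0.499 times the main median in the 9 lists. Tall peaks whose median fold was low were thus found there with odd, even and lacZ probes.

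The tallest peak of each lacZ list, out of all sequences, lay on this sequence in the region chrUn_gl000220:135000-137778. Its pileups were 19819, 24819 and 11824 fragments in lacZ replicates 1, 2 and 3, with folds of 50.2, 76.2 and 59.7 (62.0 ± 13.2, SD, n = 3). The even lists had peaks of 1106, 1269 and 597 fragments in the same merged region, with folds of 1.94, 2.08 and 2.48 (2.17 ± 0.281). No odd list had a peak there. The summits of the even and lacZ peaks were 1859 bases apart, so that both sets held the region without a common summit. A neighbouring region, chrUn_gl000220:142866-143806, had even peaks of 1736, 1841 and 1028 fragments and lacZ peaks of 1755, 2717 and 851, with summits 70 bases apart.

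Several regions of chrUn_gl000220 came in pairs about 44 kb apart, of which some had near-equal values. The region at 113243 to 113849 had pileups of 1313, 1921 and 903 in the odd lists, and the region at 157212 to 157814, whose start lies 43969 bases further on, had 1265, 1938 and 898. In lacZ replicate 1 both had peaks too, of 558 and 546 fragments. The other 3 pairs had starts 43971, 44003 and 43712 bases apart. In lacZ replicate 1 their pileups were 556 and 545, 697 and 695, and 765 and 455. In odd replicate 1 they were 422 and 460, 416 and 398, and 628 and 292, so the last pair was unequal in both lists. Only the second member of a pair had a peak in odd replicate 3 (239 fragments at 153237) and in lacZ replicate 2 (476 fragments at 158598). How reads that match both copies were assigned is not known here, and whether the members of a pair are separate sites cannot be told apart.

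On chr9_gl000199_random the even peaks were tall, but unlike those of the ribosomal sequence their folds were nearer to those of the main chromosomes. Median pileups in the even lists were 359, 469.5 and 296, which is 11.97 to 14.8 times the main median, and median folds were 6.80, 7.82 and 8.86, beside 10.7, 11.04 and 10.5 on the main chromosomes. The implied background was 15.5 to 18.9 times that of the main chromosomes. The peaks formed 52 regions, 36 of them with peaks in all 3 even lists, and the centres of neighbouring regions among those 36 stood a median of 2749 bases apart (701 to 9870). The 7 peaks of lacZ replicate 3 had pileups of 42 to 233 and folds of only 1.59 to 2.40, and 2 of their regions also had an even peak. The 1 odd peak had a pileup of 10, a fold of 6.45 and an implied background 0.881 times that of the main chromosomes. It lay at 16397 to 16658, outside the stretch of the even peaks (34412 to 163456) and of the lacZ peaks (51316 to 168619), so its background and theirs (23.7 times in lacZ replicate 3) are from different places on the sequence.

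**Figure D4:**
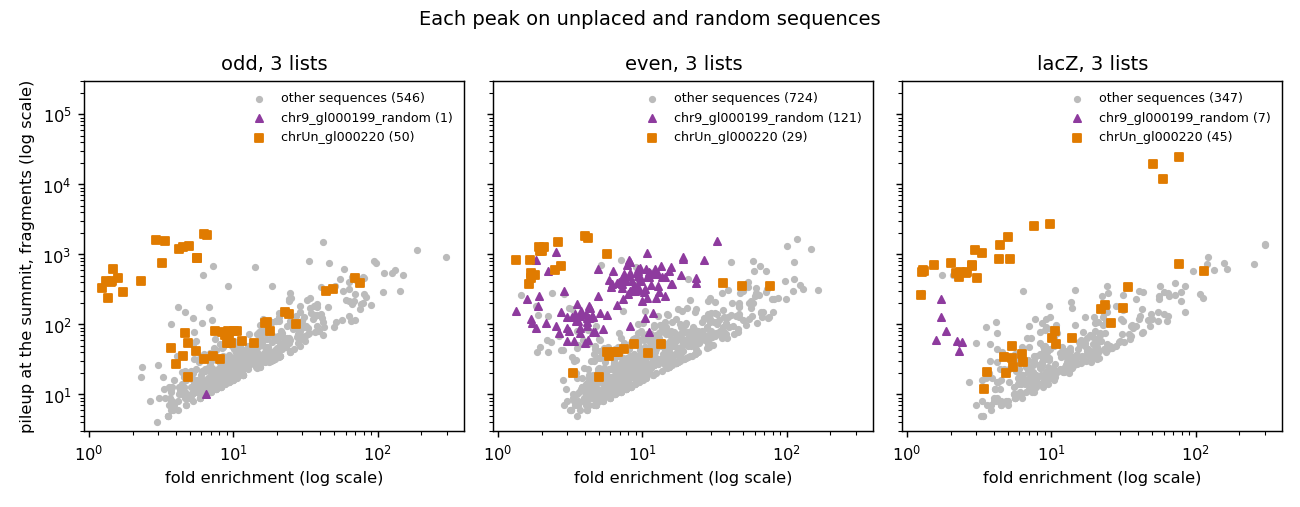
Pileup at the summit (vertical axis, fragments, log scale) against fold enrichment (horizontal axis, log scale) for each of the 1870 peaks, in 1 panel per probe set with 3 lists each. Peaks on chrUn_gl000220 (squares) include a tall group at low fold in all 3 panels, while others lie lower. The 3 lacZ peaks above 10000 fragments have folds of 50.2, 76.2 and 59.7. The 121 even peaks on chr9_gl000199_random (triangles) form a band above most other even peaks.

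Low folds on tall pileups also occurred on chrUn_gl000226, named after its values were seen: its 3 peaks, all in lacZ replicate 3, had pileups of 286, 501 and 502 and folds of 1.28 to 2.09. Taller peaks with high folds were found on chrUn_gl000241 (20 peaks, relative pileup 8.99 and relative fold 3.30), where the even lists held a region described below.

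The next comparison took the share of peaks on unplaced and random sequences that overlapped, by at least 1 base, a peak of another probe set. The shares were 12.3%, 10.6% and 11.6% in the odd lists, 9.13%, 8.09% and 10.0% in the even lists and 26.4%, 13.8% and 14.5% in the lacZ lists. On chromosomes 1 to 22 and X the share was 8.95% to 10.1%. The mean difference was 3.40 percentage points, higher in 7 of 9 lists (exact sign-flip permutation test, two-sided, p = 0.0312). A shared site counts in the lists of both sets, so the 9 differences depend on each other, which this p does not take into account. Without lacZ replicate 1, which was then also missing as a partner of the other lists, the difference was 0.43 points (exact permutation p = 0.672). Without chrUn_gl000220 it was -0.70 points (exact permutation p = 0.332), so that the excess rested on 1 list and 1 sequence.

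Odd and even probes pair with different parts of the same RNA, so a peak found with both is commonly asked for. On unplaced and random sequences the share of probe peaks in a region of the other probe set did not exceed the share in a region of lacZ by a measurable amount. In the odd lists 5 of 146, 8 of 226 and 6 of 225 peaks lay in an even region, and 2, 7 and 8 lay in a lacZ region. In the even lists 6 of 263, 5 of 272 and 9 of 339 lay in an odd region, and 8, 8 and 10 lay in a lacZ region. The mean difference was -0.09 percentage points, above 0 in 2 of 6 lists (exact sign-flip permutation test over 64 arrangements, two-sided, p = 0.906). The same difference on chromosomes 1 to 22 and X was 2.66 points, above 0 in 6 of 6 lists (exact permutation p = 0.0312, the smallest possible). Whether the 2 differences differ was not tested. Neither allows for the number of regions in each set. On chromosomes 1 to 22 and X, lacZ alone held 42110 regions, odd alone 85036 and even alone 89019. A larger share in the other probe set can therefore arise from its larger number of regions. Without chrUn_gl000220 the difference on unplaced and random sequences was 1.12 points (exact permutation p = 0.0625). Without lacZ replicate 1 it was 1.54 and without lacZ replicate 2 it was 1.66 (exact permutation p = 0.0312 each). In these runs a lacZ region needed a peak in both remaining lacZ lists, a stricter rule than for the probe sets. The effect of the list left out and that of the stricter rule cannot be told apart.

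Merging the peaks of all lists gave 871 regions, and a set was said to hold a region with a peak in at least 2 of its 3 lists. Odd alone held 178 regions, even alone 258 and lacZ alone 81. Odd and even together held 6, odd and lacZ 6, even and lacZ 7, and all 3 sets 0; the other 335 were held by no set. Regions held by 1 set made up 59.4% and those held by 2 or 3 sets 2.18%, beside 60.4% and 2.28% on chromosomes 1 to 22 and X. Odd and even together held 0.689% of the regions here and 1.24% of those on the main chromosomes. A peak in at least 5 of 6 probe lists and in no lacZ list was found in 6 regions (0.689%, against 1.13% on the main chromosomes). These counts carry no test.

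**Figure D5:**
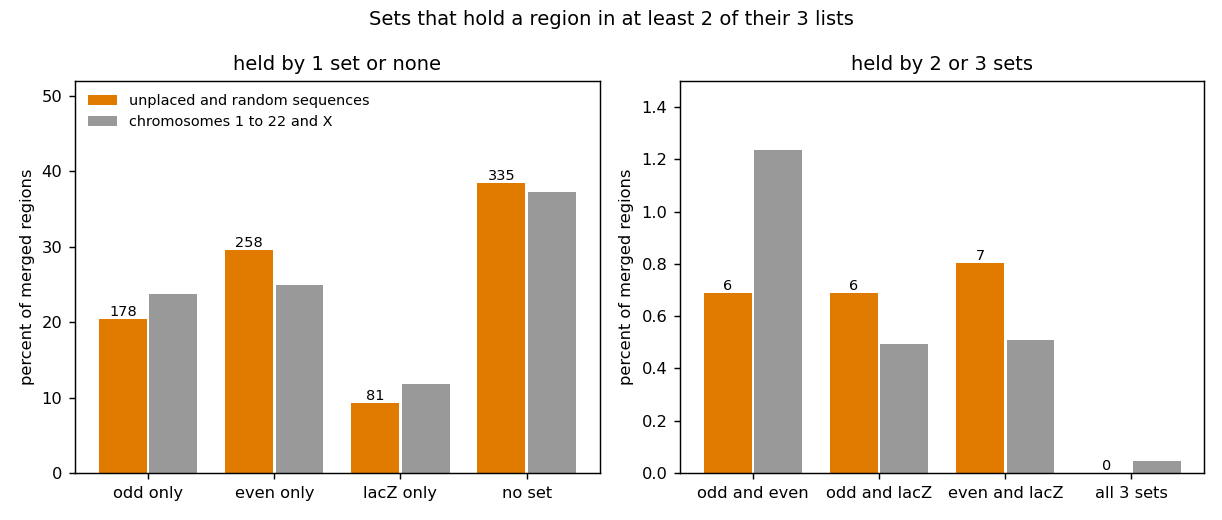
Percent of merged regions (vertical axes, starting at 0 and on different scales) held by 1 set or none (left) and by 2 or 3 sets (right), on unplaced and random sequences (orange, with the number of regions) and on chromosomes 1 to 22 and X (grey). Single-set regions prevail in both, and odd and even together hold 6 regions here.

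Of the 19 regions held by 2 or 3 sets, 5 lay on chrUn_gl000220 and 3 on chr1_gl000192_random. The distance between the sets' median summits had a median of 334.5 bases (40.5 to 1859), and 5 of 19 were within 100 bases. By this measure the median summits of most of the 19 regions were more than 100 bases apart. A distance between medians can hide a pair of near summits. At chr19_gl000208_random:90976-91881 the odd summits were at 91278, 91298 and 91279, and the even summits at 91703 and 91259. These distances were not compared with those of shared regions on the main chromosomes, so whether they are particular to these sequences was not tested.

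Among the regions held by odd and even probes, chr1_gl000192_random:103654-104956 ranked highest by fold within the lists. Its folds were 32.7, 89.6 and 65.6 in the odd lists (62.7 ± 28.6, SD, n = 3) and 78.9, 110.8 and 67.7 in the even lists (85.8 ± 22.4), with no lacZ peak. The summits were 498 bases apart. At chr4_gl000194_random:19099-20559 the summits were 40.5 bases apart, with odd folds of 32.5, 79.4 and 44.9 and even folds of 5.54 and 5.88 in replicates 1 and 3. At chrUn_gl000217:15917-16749 they were 186 bases apart, with odd folds of 7.90, 14.1 and 10.5 and even folds of 13.6, 18.4 and 15.4. All 3 regions had peaks in all 3 odd lists and in no lacZ list.

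The 13 regions shared with the control had lacZ folds from 2.70 to 112.6, and the 3 of each kind that ranked highest by fold are given here. At chrUn_gl000219:121665-122580 the odd folds were 15.3, 37.9 and 36.5 and the lacZ folds 14.6, 31.5 and 11.4, with summits 369 bases apart. At chrUn_gl000220:30206-31306 odd replicates 2 and 3 had folds of 10.5 and 11.5 and the lacZ lists 34.1, 76.7 and 31.2. At chrUn_gl000224:127709-128587 the odd folds were 11.8, 29.7 and 18.7, and lacZ replicates 1 and 2 had 5.95 and 9.44. With even probes, chr4_gl000193_random:122938-124023 had folds of 36.3, 11.8 and 35.5 beside lacZ folds of 54.5, 112.6 and 29.5, with summits 437 bases apart. The even peaks of chr17_gl000205_random:94608-95547 (14.8, 15.1 and 28.5) met lacZ peaks of 7.26 and 24.2 in replicates 1 and 2. Those of chrUn_gl000232:39403-39801 (15.7, 7.06 and 19.2) met lacZ peaks of 8.64 and 8.96, with summits 66.5 bases apart, the closest of these 6 regions.

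The highest folds belonged to regions of a single set, and lacZ probes had such regions too. With odd probes, chrUn_gl000219:50976-51973 had folds of 80.7, 296.2 and 148.8 and pileups of 456, 923 and 508. Also with odd probes, chr17_gl000205_random:78405-79843 had 66.3, 185.4 and 124.5, and chrUn_gl000219:61412-62235 had 69.5, 130.8 and 108.3. With even probes, chrUn_gl000216:122941-123788 had 128.6, 124.1 and 163.5. Even folds were 101.02, 117.9 and 146.9 at chrUn_gl000241:13679-14524, with pileups of 1325, 1676 and 1192, and 58.9, 111.3 and 111.4 at chr7_gl000195_random:49747-50648. With lacZ probes, chrUn_gl000229:8814-9690 had 120.4, 302.2 and 64.9, chr4_gl000194_random:78292-79204 had 134.05, 299.8 and 55.6, and chrUn_gl000218:63587-64413 had 107.5, 251.97 and 46.9. Each of these 9 regions had peaks in all 3 lists of its set and in no other list. Folds are the authors' values within a list and were not compared between lists.

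Recurrence in all 3 lists of one set did not differ measurably from that on the main chromosomes. The share of peaks in regions with all 3 lists of the set was 80.8%, 51.8% and 52% in the odd lists, 79.5%, 76.5% and 61.9% in the even lists and 47.2%, 22.8% and 73.9% in the lacZ lists. Against chromosomes 1 to 22 and X the mean difference was -2.61 percentage points, below 0 in 6 of 9 lists (exact sign-flip permutation p = 0.316). The widest gap was in lacZ replicate 3, with 73.9% against 90.9%.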

How the data were processed

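Peak lists of 9 ChIRP-seq libraries of Jurkat cells (odd, even and lacZ probes, 3 each) were used. Per the submitters' processing notes, FastQC, Bowtie2 and the build hg19 were used by the authors. Their versions, the peak caller, its control library and the handling of reads that match several places are not stated in those notes, the labels or the lists. The deposited lists give positions counted from 1, the pileup as an unscaled signal in fragments, −log10 of the p-value and of the q-value (lowest −log10 q 1.30), and the fold enrichment as a ratio to a background, per the file headers. Depth is unknown, so no counting intervals were computed.

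Computed here were peaks per 10000 peaks of the list, ratios of medians to chromosomes 1 to 22 and X, overlaps of at least 1 base, and regions merged over the 9 lists. Comparisons of lists used exact permutation and sign-flip tests, two-sided. Rates per sequence were fitted with limma 3.58.1 (R 4.3.3, trend, 0.5 peak added, mean of at least 3 peaks) with Benjamini-Hochberg adjustment over 47 sequences. The code of the fit was run on simulated counts with Poisson spread alone. That run cannot show how the fit behaves with the spread between these lists. Python 3.11.15, numpy 2.4.6 and pandas 2.3.3 did the rest. Named are the 12 sequences with the highest mean rate, those called, and in each class of sets up to 3 regions that ranked highest by fold within their lists. The members, lists of sequences and rules were chosen with earlier results of these data known. Alternatives were stricter lists, equal lengths, other overlap rules, other added peaks, no filter, a replicate block and left-out lists or sequences. A table of genes of another build (GRCh38) was not used, so no annotation and no sequence is given.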

Additional observations from a re-analysis of the deposited data

Results flagged for a closer look

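One sequence differed between the 2 probe sets by a test of that difference: on chr9_gl000199_random the odd lists had 0, 0 and 1 peaks and the even lists 38, 46 and 37, a log2 difference of the rate of -5.7 (odd minus even, limma adjusted p = 0.0394, lower in 3 of 3 odd lists). The sequence met the filter of at least 3 peaks per list only through the even lists, where it is high, and the p-value does not allow for this. The size depends on the 0.5 peak added to the lists with no peak. The call ended, with the size still large, when that addition was scaled to list length and when any 1 even list was left out.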

How the results depend on the processing

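Of the 1870 peaks, 463 sit on sequences with too few peaks to test, and the unknown depth limits what a missing peak means. No called sequence changed direction in an alternative. The excess of pileup, −log10 q and implied background kept its direction and side of the threshold in every alternative run. Even lists stood above odd lists in every alternative run (log2 difference 0.45), by only 0.085 at equal length, a comparison too small for its p to pass.

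The rate of probe against lacZ lists (-0.01) changed sign in the upper part of each list by fold (0.068), on the linear scale (0.15 peaks per 10000), without chrUn_gl000220 (0.10) and without it and chr9_gl000199_random (0.043), and ran from -0.074 to 0.082 with lists left out. The log2 length ratio was 0.051 in lists of equal length (exact permutation p = 0.0312), -0.032 without chrUn_gl000220, -0.026 without both sequences and -0.016 to 0.034 with lists left out. The log2 fold ratio (-0.20) was -0.021 in the upper part and -0.014 at equal length.

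The excess of shared peaks (3.40 points) was -1.53 in the upper part, 0.44 at equal length, -0.70 without chrUn_gl000220, -0.82 without both sequences, 1.11 with at least 50% of the peak covered, 0.99 with summits within 100 bases, and 0.43 to 4.29 with lists left out. The share in the other probe set minus that in lacZ (-0.09 points) was 0.86 in the upper part, 0.65 at equal length, 1.12 without chrUn_gl000220, 1.13 without both sequences and 0.19 with regions of all 3 lists. It was -2.99 with regions of at least 1 list (exact permutation p = 0.0312) and -0.90 to 1.66 with lists left out. Regions of 1 set (517) numbered 234 in the upper part, 144 at equal length, 815 with 1 list enough for a set, and 396 to 447 with lists left out. Regions of 2 or 3 sets (19) numbered 4, 3, 56 and 7 to 14, and 6 where all 3 lists were needed. With lists left out, a set that lost a list needed both of its other lists to hold a region, a stricter rule.

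Called sequences numbered 3 in the upper part, 3 at equal length, 25 without a filter and 0 to 10 with lists left out for odd against lacZ (9). With the added peak scaled to list length they numbered 6 in that comparison, 5 higher and 1 lower in odd lists. For even against lacZ (9) they numbered 3 at equal length, 23 without a filter and 0 to 12 with lists left out. For odd against even (1) they numbered 3 in the upper part, 3 at equal length, 12 without a filter, 0 with the added peak scaled to list length (5 at an unadjusted p under 0.05 in limma) and 0 to 3 with lists left out. The cause of these changes was not tested, beside the smaller number of sequences tested in the shorter lists (9 in the upper part and 4 at equal length) and the larger number without a filter (59).

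With the replicate number as a block, limma called 10, 9 and 2 sequences, and exact permutation p-values for the rate were 1 (probe against lacZ) and 0.25 (even against odd, the smallest possible). Same-numbered lists of different sets correlated from -0.52 to 0.59 in their deviations, 5 of 9 pairs above 0.1, and 4 of 9 lists correlated best with one of their own number. The numbers were therefore not taken to pair the lists, and whether same-numbered lists share a culture or day is not known.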
